A study of Mus musculus with 6 samples.

Results

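The genes described here encode the enzymes that build cholesterol, the proteins that sense sterols, and those that move, store or export them, in mouse muscle cells treated with recombinant human MG53 (rhMG53). They are 33 genes chosen by function, each matched by its symbol to a row of the count table, out of 27179 rows in all. MG53, the product of Trim72, is a ubiquitin ligase of skeletal and heart muscle known for sealing injured plasma membrane. RNA was sequenced from primary hindlimb satellite cells of wild-type (WT) C57BL/6 mice, which the labels call ageing without giving an age. All cultures were kept in DMEM with 20% fetal bovine serum and bFGF, and serum carries lipoprotein cholesterol. One group received rhMG53 for 72 h (day 3) and the other the control protein bovine serum albumin (BSA), with 3 libraries in each group. The sources used here give no dose and no number of animals, and they tie no library to an animal or culture. The p-values therefore rest on the spread over these libraries, which may be technical.

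Cholesterol is made from acetyl-CoA through mevalonate, squalene and a series of ring modifications. When sterol in the endoplasmic reticulum is low, SCAP escorts the transcription factor SREBP to the Golgi, where SREBP is cut and released to raise the genes of synthesis and uptake. INSIG proteins hold SCAP back when sterol is plentiful. The liver X receptors (LXRs) are activated by oxysterols and raise genes of cholesterol efflux. Muscle cells use cholesterol for the sarcolemma, for caveolae and for membrane systems that form during differentiation.

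Library totals were 17374151 to 22738745 counts. Levels are given as CPM, counts divided by the TMM-scaled library size in units of 1e6, which adjusts library sizes for composition. The cultures expressed muscle genes at high levels in both groups, with Myog at 895 CPM under BSA and 925 CPM under rhMG53, and little of the satellite cell factor Pax7, at 10.03 and 8.44 CPM. The 6 satellite cell markers summed to 2189 to 2273 CPM under BSA and 2011 to 2177 CPM under rhMG53, nearly all from the adhesion genes Itga7 (1792 and 1671 CPM) and Cdh15 (404 and 408 CPM). Of the markers of other cell types, those of fibroblasts and fibro-adipogenic progenitors summed to 72.5 to 85.3 CPM under BSA and 78.9 to 91.6 CPM under rhMG53. Macrophage and leukocyte markers summed to 7.51 to 9.24 and 7.30 to 9.39 CPM, endothelial markers to 1.43 to 2.03 and 1.26 to 1.97 CPM, and adipocyte markers to 1.41 to 2.87 and 1.68 to 2.32 CPM. Of the leukocyte, endothelial and adipocyte markers, Ptprc, Pecam1 and Adipoq averaged at most 0.109 CPM in each group. Others in the same lists were higher, such as Itgam (4.74 CPM under BSA and 4.97 CPM under rhMG53) and Mrc1 (2.16 and 2.01). Pparg was at 1.28 and 1.33 CPM and Emcn at 0.903 and 0.495 CPM. Pericyte and smooth muscle markers, of which Kcnj8 was at 0 in all libraries, summed to 1337 to 1510 CPM under BSA and 1244 to 1358 CPM under rhMG53, mostly from Acta2, which muscle cells also express. In the same list Pdgfrb averaged 82.1 CPM under BSA and 85.3 CPM under rhMG53, and Cspg4 32.4 and 35.9 CPM. Schwann cell markers summed to 1.81 to 3.08 and 2.78 to 3.18 CPM. The part of these cell types in the results below was not tested. In bulk RNA, fewer cells of a type and less RNA per cell cannot be told apart. In rhMG53 replicate 3, genes of the mitochondrial chromosome took the lowest share of counts, 6.42% against 7.33% to 9.14% in the other libraries, and an unnamed gene ID took 0.902% against 0.226% to 0.563%. Ttn and Lrp1, which have long transcripts, were lowest in rhMG53 replicate 2 and next lowest in BSA replicate 3. Ttn was at 1581 and 2449 CPM there, against up to 3928 CPM in the other libraries, and Lrp1 at 423 and 466 against up to 705 CPM. The cause of these differences was not tested.

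All 33 genes passed the filter on low counts, with at least 13 counts in every library. None of them changed between rhMG53 and BSA at an adjusted p under 0.05 in edgeR's quasi-likelihood test, by which 0.0218% of 13769 tested genes were called. Their adjusted p ran from 0.935 to 0.999. DESeq2 and limma voom also called 0 of the 33. At an unadjusted p under 0.05 in edgeR, 2 of the 33 were higher in rhMG53 (Insig1 and Mvd), where 2.98% of all tested genes were, and 2 were lower (Abcg1 and Mylip), where 2.22% of all were. At the same level DESeq2 had 1 higher and 1 lower, and limma voom 2 and 2. All 3 rhMG53 libraries lay above all 3 BSA libraries for Insig1, Mvd and Fdft1 (5.94% of all tested genes), and below them for Mylip, Abcg1, Srebf1 and Nr1h3 (4.83% of all). By sign alone 22 of the 33 had a log2 fold change above 0, against 50.5% of all genes, with a median of 0.04 beside 0.001 for all genes. The 95% intervals of the log2 fold change had a median margin of 0.15 on either side of the estimate. Leaving out 1 library moved the log2 fold change of 26 of the 33 genes by over 1.5 times or across 0, and the 7 that stayed within that limit were Insig1, Mvd, Sqle, Srebf1, Nr1h3, Abcg1 and Mylip.

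**Figure D1:**
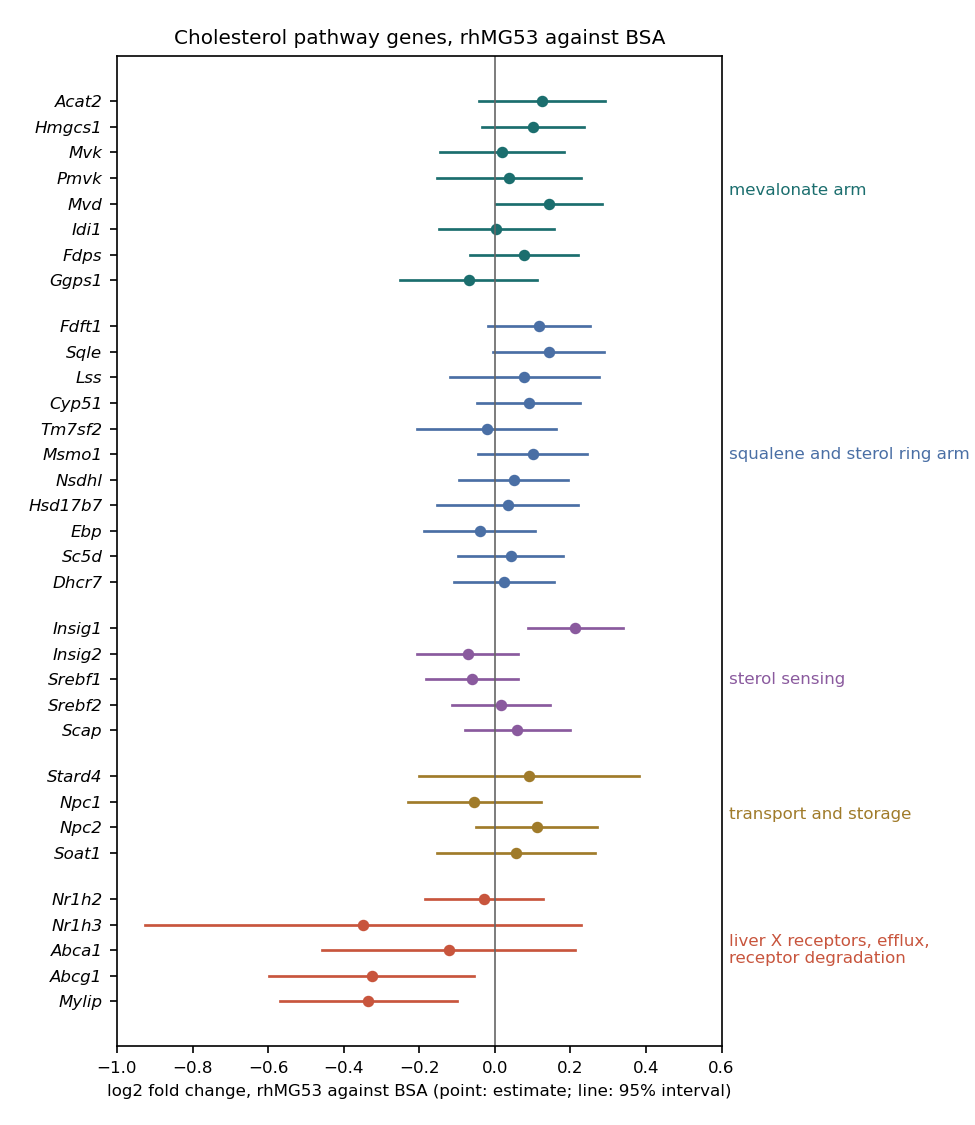
Log2 fold change of rhMG53 against BSA for the 33 genes, grouped and coloured by role. Points are edgeR estimates and lines their 95% intervals. Of the 33 intervals, those of Insig1 and Mvd lie above 0 and those of Abcg1 and Mylip below it, and all 5 points of the liver X receptor, efflux and receptor degradation group lie below 0.

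Among the sterol sensors, Insig1 had the lowest p, also of the 33 genes. Insig1 encodes the INSIG protein that is itself a target of SREBP, so that its transcript rises where SREBP is active. It was at 121, 118 and 117 CPM in BSA replicates 1 to 3 and at 132, 143 and 139 CPM in rhMG53 replicates 1 to 3. Every rhMG53 library was above every BSA library. The log2 fold change was 0.21 (SE 0.0572, 95% interval 0.09 to 0.34), a 1.16-fold difference with an adjusted p of 0.935, and Insig1 ranked 48 of all tested genes by p. The gene (ID 231070) lies on chromosome 5 at 28071412 to 28078662 in GRCm38.p6, the assembly of mm10.

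Insig2, its paralog, had values of 58.2, 56.6 and 55.8 CPM under BSA and 54.6, 51.8 and 55.9 CPM under rhMG53. These groups overlapped, and the log2 fold change was -0.07 (SE 0.0610, interval -0.21 to 0.06). Srebf2, which encodes the SREBP that mainly drives cholesterol genes, was at 159, 153 and 147 CPM under BSA and 151, 152 and 161 CPM under rhMG53. Its log2 fold change was 0.02 (SE 0.0590, interval -0.12 to 0.15). Srebf1, whose product mainly drives fatty acid genes and which is also an LXR target, was at 127, 122 and 123 CPM under BSA and 118, 117 and 121 CPM under rhMG53. Here the highest rhMG53 library, at 121.4 CPM, lay just under the lowest BSA library, at 122.0 CPM, and the log2 fold change was -0.06 (SE 0.0549, interval -0.18 to 0.06). Scap, the escort protein gene, averaged 59.2 ± 2.51 CPM under BSA and 61.7 ± 2.36 CPM under rhMG53 (SD, n = 3 each). The 5 sensor genes together summed to 512 ± 10.8 CPM under BSA and 527 ± 13.0 CPM under rhMG53, 2.99% higher. This difference was near the spread and was 1.59% without rhMG53 replicate 3. It was no larger than that of Insig1 alone, which averaged 119 and 138 CPM, and 2 of the 5 genes were below 0.

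**Figure D2:**
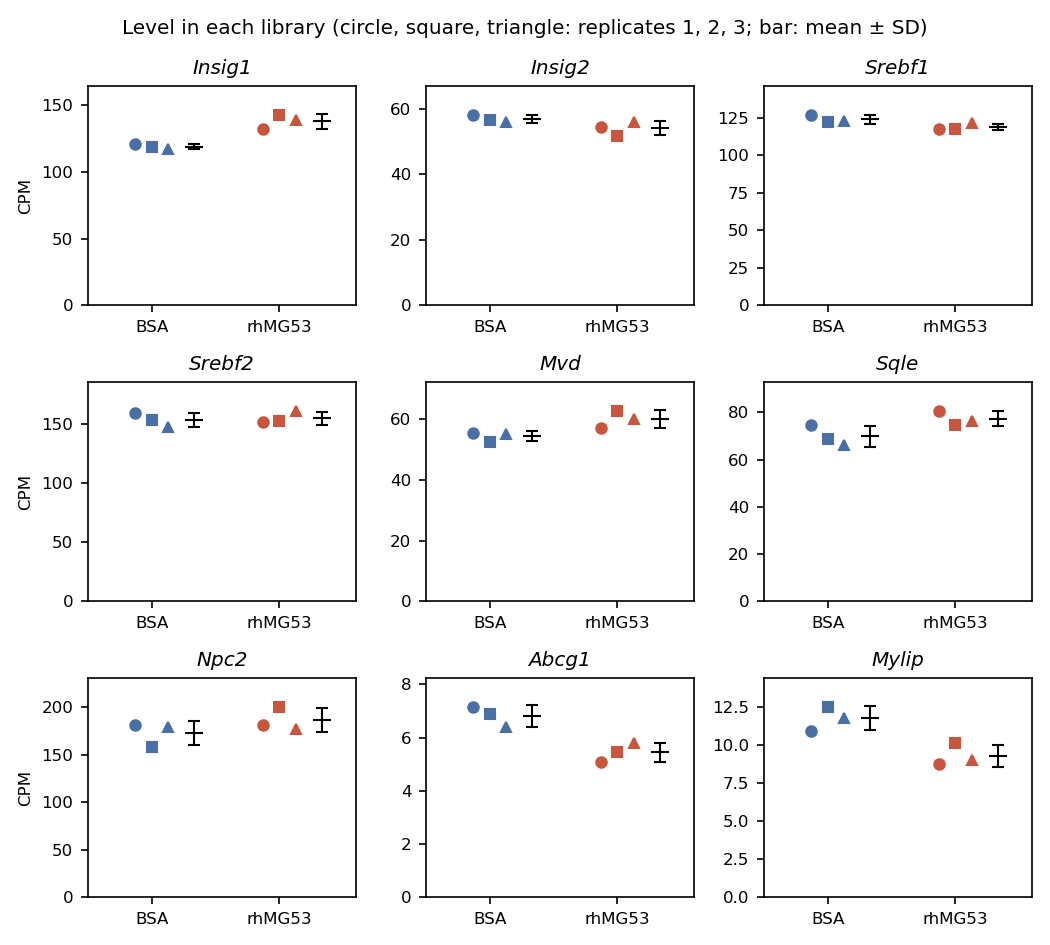
CPM of 9 genes in each library, on axes that start at 0. Circles, squares and triangles are replicates 1, 2 and 3 of each group, and bars are mean ± SD. Insig1 and Mvd are higher in every rhMG53 library than in any BSA library, Abcg1, Mylip and Srebf1 are lower, and Insig2, Srebf2, Sqle and Npc2 overlap between the groups.

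The promoters of 4 of these genes are shown to set the motifs linked to SREBP control beside the values. Promoter windows of 250 bases before to 50 bases after the start, from RefSeq on GRCm38.p6, were found for 27 of the 33 genes. Abcg1, Fdft1, Fdps, Npc1, Sqle and Stard4 had none and were not searched. SREBP binds sterol elements and E-boxes, often with the factor NF-Y beside it. The windows were searched on both strands for the sterol element TCACNCCAC, the E-box CACGTG and the NF-Y box CCAAT, which reads ATTGG on the other strand. The stretches run 5′ to 3′ on the gene's strand, and capitals mark matches to any of these 3 motifs. They lie at chr5:28071162-28071362 (plus strand, Insig1), chr8:122443423-122443672 (minus strand, Mvd), chr13:119690101-119690350 (plus strand, Hmgcs1) and chr13:45389492-45389741 (plus strand, Mylip). Each ends just before the RefSeq start except that of Insig1, which stops at base -50, where a GENCODE exon begins.
Insig1: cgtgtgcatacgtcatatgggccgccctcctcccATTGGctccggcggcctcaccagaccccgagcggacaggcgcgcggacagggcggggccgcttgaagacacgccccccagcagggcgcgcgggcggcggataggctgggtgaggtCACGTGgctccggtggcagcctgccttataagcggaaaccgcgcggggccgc
Mvd: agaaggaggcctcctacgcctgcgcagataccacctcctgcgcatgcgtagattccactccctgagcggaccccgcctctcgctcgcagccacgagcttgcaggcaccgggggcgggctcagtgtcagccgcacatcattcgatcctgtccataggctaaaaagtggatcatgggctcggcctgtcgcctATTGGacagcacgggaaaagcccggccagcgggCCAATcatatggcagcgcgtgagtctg
Hmgcs1: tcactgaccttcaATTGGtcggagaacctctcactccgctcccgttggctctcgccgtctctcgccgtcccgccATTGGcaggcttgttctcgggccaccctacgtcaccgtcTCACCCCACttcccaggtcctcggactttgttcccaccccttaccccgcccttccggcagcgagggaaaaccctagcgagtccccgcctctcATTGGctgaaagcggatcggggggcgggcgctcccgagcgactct
Mylip: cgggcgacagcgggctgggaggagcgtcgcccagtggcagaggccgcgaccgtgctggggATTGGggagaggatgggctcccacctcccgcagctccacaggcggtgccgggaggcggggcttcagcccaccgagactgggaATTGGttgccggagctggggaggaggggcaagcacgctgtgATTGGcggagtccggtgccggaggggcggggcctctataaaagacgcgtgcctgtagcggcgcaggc

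Insig1, Mvd and Mylip are shown because they had an unadjusted p under 0.05 and a window, a choice made after their values were seen, and Hmgcs1 because it is the single gene of the 27 with the sterol element, at base -137 from its start. That element was in 1.42% of the tested genes with a window and in 1.24% of all 32851 promoter windows. Only matches to its letters inside these windows were counted. Other forms of the element and more distant sites were not looked for, so genes without a match may still have one. Insig1 held an E-box at base -101 and an NF-Y box at -216, Mvd NF-Y boxes at -60 and -27, and Hmgcs1 NF-Y boxes at -237, -176 and -45 in the stretch shown and another at 11 bases after the start, counted from a start that was not found in a GENCODE transcript of that gene. Mylip, which was lower with rhMG53, also held NF-Y boxes, at -190, -108 and -67. Of the 27 genes with a window 22 had an NF-Y box in at least 1 window, against 42.7% of the 10638 tested genes with one. Counted by window, the box was in 63.9% of the 36 windows of these genes, in 37.3% of the windows of all tested genes and in 37.4% of all windows. It was found in 6 of 7 genes of the mevalonate arm, 9 of 9 of the squalene and sterol ring arm, 4 of 5 sensors, 2 of 2 of the transport and storage group and 1 of 4 of the LXR and efflux group. The E-box was in 6 of the 27 genes, against 11.8% of tested genes, and in 7.15% of all windows. The Sp1 box GGGCGG was in 23 of the 27, against 68.2%, and in 35.7% of all windows. The NF-Y, Sp1 and E-box searches were added after the sterol element was found once. These matches describe the letters of the windows and not binding.

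The 8 enzymes that lead from acetyl-CoA to farnesyl and geranylgeranyl diphosphate were close in level between the groups. Of these 7 had a log2 fold change above 0, against 50.5% of all tested genes, and 0 were called by edgeR. Mvd, the decarboxylase that makes isopentenyl diphosphate, was at 55.3, 52.3 and 55.0 CPM under BSA and at 57.1, 62.7 and 60.0 CPM under rhMG53. The groups did not overlap, and the log2 fold change was 0.14 (SE 0.0632, interval 0.004 to 0.28, adjusted p = 0.95), a 1.10-fold difference. Mvd (ID 192156) lies on the minus strand of chromosome 8 at 122433596 to 122443422. Hmgcs1, the HMG-CoA synthase gene, was at 203, 191 and 182 CPM under BSA and 212, 199 and 207 CPM under rhMG53. Its log2 fold change was 0.10 (SE 0.0613), and the groups overlapped. Acat2, here the cytosolic thiolase of the first step, was at 51.19, 51.75 and 50.27 CPM under BSA and at 49.98, 56.56 and 60.57 CPM under rhMG53, so that rhMG53 replicate 1 was the lowest of the 6 libraries and replicate 3 the highest. Fdps, the farnesyl diphosphate synthase gene, averaged 203 ± 6.46 and 214 ± 14.5 CPM. The mevalonate and phosphomevalonate kinase genes Mvk and Pmvk and the isomerase gene Idi1 had log2 fold changes of 0.02, 0.04 and 0.004. Ggps1, which makes the geranylgeranyl chain used for protein prenylation rather than for sterols, was the member below 0, at -0.07 (SE 0.0827), and was -0.02 without BSA replicate 2 and -0.14 without BSA replicate 3. The 8 genes summed to 739 ± 23.6 CPM under BSA and 775 ± 24.3 CPM under rhMG53, 4.87% higher. The sums of single libraries overlapped, at 712 to 756 and 749 to 797 CPM, and the difference was 2.99% without BSA replicate 3.

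The 11 enzymes from squalene to cholesterol were similarly close, with 9 above 0, against 50.5% of all tested genes, and 0 called. Sqle, the squalene epoxidase and a rate-limiting step, was at 74.8, 68.9 and 66.1 CPM under BSA and 80.7, 74.5 and 76.4 CPM under rhMG53. The lowest rhMG53 library lay just under the highest BSA library, and the log2 fold change was 0.14 (SE 0.0668, interval -0.005 to 0.29, adjusted p = 0.95). Fdft1, which makes squalene, was at 66.1, 64.5 and 60.0 CPM under BSA and 69.9, 67.8 and 69.0 CPM under rhMG53, with groups that did not overlap (adjusted p = 0.965). Its log2 fold change was 0.12, with an SE of 0.0615. Fdft1 shares 18.3% of its exon bases with Ctsb on the opposite strand, and the strand setting of the counting is not given. Cyp51, the demethylase of lanosterol, averaged 169 ± 10.6 and 180 ± 3.06 CPM, and Msmo1, the oxidase of the C4 methyl groups, 73.7 ± 4.65 and 79.1 ± 2.51 CPM. The cyclase gene Lss had a log2 fold change of 0.08, the C4 dehydrogenase gene Nsdhl 0.05, the desaturase gene Sc5d 0.04, the ketoreductase gene Hsd17b7 0.03 and the last reductase of its branch, Dhcr7, 0.02. The C14 reductase gene Tm7sf2 and the isomerase gene Ebp were at -0.02 and -0.04. Lss was at 0.01 without BSA replicate 3 and 0.17 without BSA replicate 1, and Sc5d at 0.004 and 0.08 without the same libraries. The 11 genes summed to 772 ± 26.3 CPM under BSA and 810 ± 13.3 CPM under rhMG53, 4.84% higher. Here too the sums of single libraries overlapped, at 757 to 803 and 795 to 819 CPM. The difference ran from 3.78% to 6.94% when each library was left out.

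As one set of 19, the synthesis enzymes summed to 1559, 1507 and 1469 CPM in BSA replicates 1 to 3 and 1564, 1575 and 1616 CPM in rhMG53 replicates 1 to 3. The sums did not overlap, though BSA replicate 1 and rhMG53 replicate 1 differed by less than the spread within either group. Those of each arm alone did overlap, and no share over all genes was computed for such sums. Fdps, Hmgcs1, Cyp51 and Idi1 gave the largest parts, averaging 208, 199, 175 and 168 CPM over all libraries. The median log2 fold change of the 19 was 0.05. BSA replicate 1 was the highest BSA library for 10 of the 19 enzymes, and without it the median was 0.08. rhMG53 replicate 3 was the highest rhMG53 library for 11 of the 19, and without it the median was 0.04 and 13 of 19 were above 0, against 16 of 19 with all libraries. Over all tested genes 49.3% were above 0 without that library and 50.5% with all libraries. Without rhMG53 replicate 1 the median was 0.08. Over all 33 genes the median of 0.04 became 0.01 without rhMG53 replicate 3, with 18 genes above 0, and 0.02 without BSA replicate 3.

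**Figure D3:**
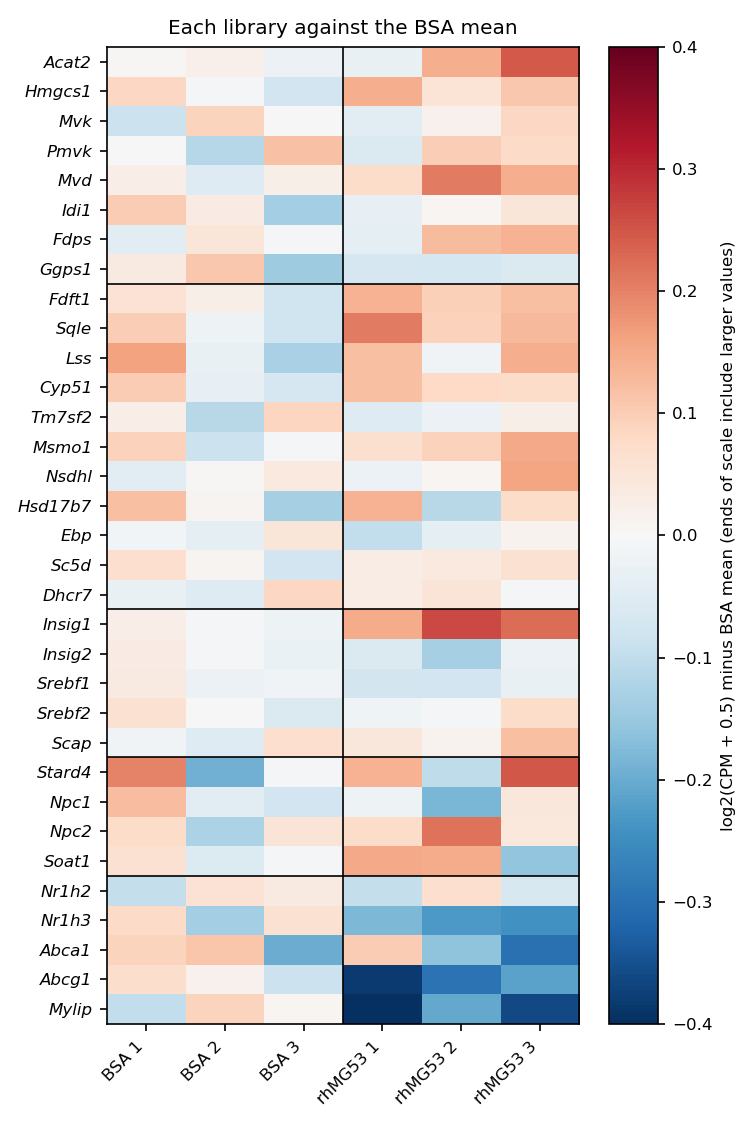
Each library against the BSA mean of the same gene, as log2(CPM + 0.5), with genes in role order and horizontal lines between roles. Red is higher and blue lower. rhMG53 replicate 3 has 23 of 33 genes above the BSA mean and BSA replicate 1 has 24, and the bottom block, the liver X receptor, efflux and receptor degradation genes, is mostly blue in the rhMG53 columns.

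Of the 4 genes that carry sterol between compartments or store it, 3 were above 0, against 50.5% of all tested genes. None was called, and the groups overlapped for each. Npc2, a soluble lysosomal protein that hands cholesterol to NPC1, was at 182, 158 and 179 CPM under BSA and 182, 201 and 178 CPM under rhMG53, with a log2 fold change of 0.11 (SE 0.0726, interval -0.05 to 0.27). Without BSA replicate 2 it was 0.05 and without rhMG53 replicate 2 it was 0.06. Its membrane partner Npc1 averaged 57.4 ± 4.45 and 55.3 ± 4.48 CPM. Stard4, a cytosolic sterol carrier and SREBP target, averaged 10.5 ± 1.49 and 11.3 ± 1.43 CPM. Soat1, which esterifies cholesterol for storage, averaged 21.7 ± 0.874 and 22.5 ± 2.73 CPM. Together the 4 genes summed to 262 ± 17.7 and 276 ± 8.32 CPM, with Npc2 giving most of the sum. The difference of 5.09% was 1.44% without BSA replicate 2, 3.35% without rhMG53 replicate 2 and 8.46% without BSA replicate 1.

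All 5 genes of the LXR, efflux and receptor degradation group had log2 fold changes below 0, opposite in sign to most of the enzymes, and 0 were called. Among all tested genes 50.5% were above 0. Mylip, a ubiquitin ligase raised by LXRs that sends lipoprotein receptors for degradation, was at 11.0, 12.5 and 11.8 CPM under BSA and 8.78, 10.1 and 9.04 CPM under rhMG53. All rhMG53 libraries were below all BSA libraries, and the log2 fold change was -0.33 (SE 0.106, interval -0.57 to -0.10, adjusted p = 0.935). Abcg1, an LXR-induced transporter that exports cholesterol, was at 7.16, 6.89 and 6.38 CPM under BSA and 5.10, 5.45 and 5.80 CPM under rhMG53. These groups did not overlap either, and the log2 fold change was -0.33 (SE 0.123, interval -0.60 to -0.05, adjusted p = 0.946). Expressed as a fold, the rhMG53 level was 0.793 of the BSA level for Mylip and 0.798 for Abcg1. Mylip (ID 218203) lies on chromosome 13 at 45389742 to 45411940 and Abcg1 (ID 11307) on chromosome 17 at 31057694 to 31117984.

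The other 3 genes of that group were less clear. Abca1, the LXR target that loads cholesterol onto lipid-poor apolipoprotein, was at 6.90, 7.01 and 5.55 CPM under BSA and 6.97, 5.72 and 5.16 CPM under rhMG53, and its groups overlapped (log2 fold change -0.12, SE 0.152). Its value ran from -0.25 without rhMG53 replicate 1 to -0.03 without rhMG53 replicate 3. Nr1h3, which encodes LXR-alpha, was low, with 24, 15 and 19 counts with BSA and 16, 14 and 13 with rhMG53. In CPM its values were 1.06, 0.847 and 1.04 against 0.808, 0.763 and 0.754, which did not overlap, but its interval ran from -0.93 to 0.23. Nr1h2, which encodes the widely expressed LXR-beta, averaged 53.3 ± 3.01 and 52.2 ± 3.17 CPM, far above Nr1h3 per length of transcript in both groups. The 5 genes summed to 79.4 ± 3.42 CPM under BSA and 73.7 ± 3.62 CPM under rhMG53, and these sums overlapped. Nr1h2 turned to 0.001 without BSA replicate 2 and to 0.003 without rhMG53 replicate 1, so the 5 genes did not share a sign without either of these libraries. The median of all 5 genes was -0.33. When genes under 5 CPM, here Nr1h3, were left out, the median of the remaining genes was -0.23.

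Levels of different genes were compared per kb of exon, using the joined GENCODE exons of each gene, which overstates the length of genes with rare long isoforms. Fdps was highest at 49.5 CPM per kb, followed by Idi1 (47.9), Hmgcs1 (43.4), Insig1 (41.5) and Cyp51 (39.6). Each of these overlapped the next in its range over the 6 libraries. Of the 33 genes 12 share exon bases with another annotated gene, 9 of them with one on the opposite strand. Fdps shares 26.7% of its exon bases with a second annotated gene on the same strand, Gm43738, so its reads may have been divided. Npc2, Nsdhl and Mvd followed at 33.0, 31.2 and 30.7, above a gap to Srebf1 (21.5) and Srebf2 (21.4), which did not differ beyond their spread. Insig1 was at 41.5 and Insig2 at 16.0 CPM per kb, with ranges that did not overlap. The lowest were Abcg1 (0.840), Abca1 (0.60) and Nr1h3 (0.350), whose ranges were separate from each other and from the rest. Of the 32 pairs of neighbours in this order 24 overlapped and 8 did not.

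**Figure D4:**
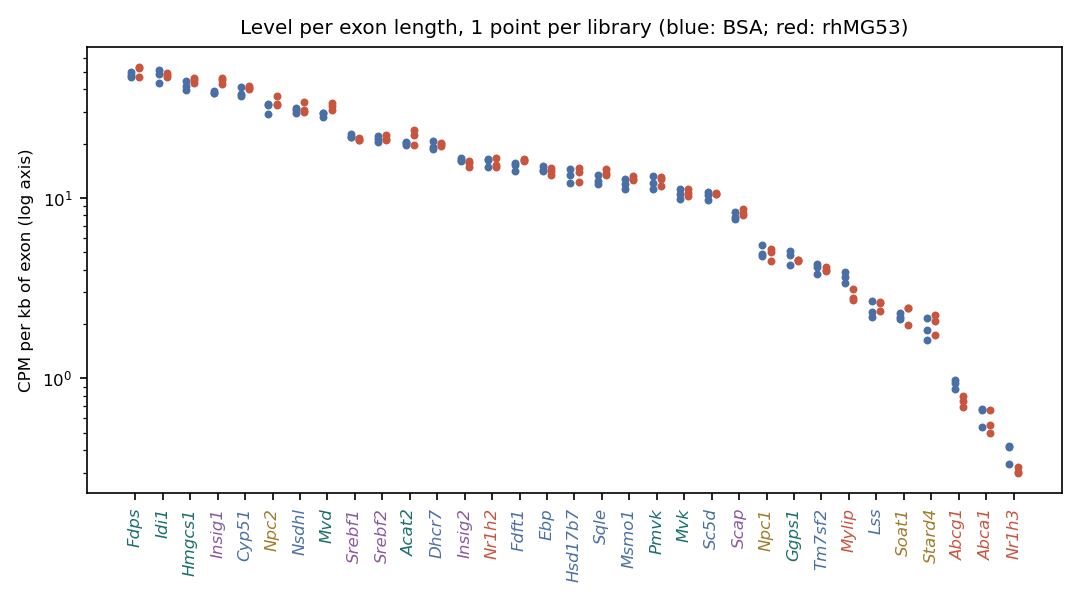
CPM per kb of exon on a log axis, 1 point per library, blue for BSA and red for rhMG53, in order of the mean. Gene names are coloured by role as in the plot of fold changes (teal mevalonate arm, blue squalene and sterol ring arm, purple sensors, brown transport and storage, red liver X receptors and efflux). Levels run from 49.5 for Fdps to 0.350 for Nr1h3, and the spread over libraries is small beside the differences between most distant genes.

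The variation between libraries of a group was modest for these genes. The coefficient of variation of a gene within a group of 3 had a median of 5.31% and ran from 0.470% to 15.6%. Its highest value was that of Abca1 with rhMG53. The fitted differences of the enzymes were up to 1.10-fold, while this coefficient describes single libraries and not means of 3. All rhMG53 libraries lay above all BSA libraries for 2 of the 19 enzymes, Mvd and Fdft1, against 5.94% of all tested genes.

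Of 16 tested genes of fatty acid synthesis under SREBP control 13 were above 0, against 50.5% of all tested genes, and 0 were called. An unadjusted p under 0.05 in edgeR was found for 4, all higher, where 2.98% of all tested genes were higher. The median was 0.07 on the log2 scale. The median was 0.11 without BSA replicate 1 or without rhMG53 replicate 2 and 0.04 without rhMG53 replicate 3, and 9 of 16 were above 0 without BSA replicate 3 or without rhMG53 replicate 1. With upper quartile scaling 11 of 16 were above 0. The 16 genes summed to 3762 ± 146 and 3814 ± 201 CPM, 1.37% higher, and these sums overlapped. Fads2, a desaturase of polyunsaturated fatty acids, averaged 43.2 ± 1.45 CPM under BSA and 51.2 ± 2.08 CPM under rhMG53 (log2 fold change 0.24, SE 0.0638, adjusted p = 0.935). Acly, which supplies cytosolic acetyl-CoA, averaged 176 ± 10.03 and 196 ± 5.83 CPM (0.15, SE 0.0614, adjusted p = 0.946). The groups did not overlap for either gene, and both are named for the smallest p of this list. All rhMG53 libraries lay above all BSA libraries for 3 of the 16, against 5.94% of all tested genes.

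Helpers and electron donors of the sterol enzymes had 10 of 13 tested genes above 0, against 50.5% of all, and 0 called. At an unadjusted p under 0.05 in edgeR 3 were higher, where 2.98% of all tested genes were, and the median was 0.08. Cyb5a, the cytochrome b5 that passes electrons to sterol and fatty acid enzymes, averaged 22.97 ± 2.28 and 28.5 ± 1.83 CPM (0.31, SE 0.0888, adjusted p = 0.935). Tmem97, a sterol-responsive membrane protein gene, averaged 18.1 ± 0.302 and 21.2 ± 1.23 CPM (0.23, SE 0.0782, adjusted p = 0.935). Both, named for the smallest p of this list, were higher in every rhMG53 library than in any BSA library. So were 5 of the 13 genes in all, against 5.94% of all tested genes. Without BSA replicate 2 the median of this list was 0.03 and without rhMG53 replicate 2 it was 0.05.

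Lipoprotein receptors and their adaptors were split, with 8 of 16 above 0, 0 called and a median of -0.001. Lrp8, a receptor of the lipoprotein receptor family, was the single gene at an unadjusted p under 0.05, at 10.9 ± 0.979 and 12.8 ± 0.204 CPM (0.22, SE 0.0987, adjusted p = 0.95). At that level 2.98% of all tested genes were higher. Sorl1, a sorting receptor, was low, at 1.03 ± 0.126 and 1.40 ± 0.142 CPM (0.45, SE 0.237, adjusted p = 0.965). Among partners and other targets of the LXRs 4 of 11 were above 0, against 50.5% of all tested genes, 0 were called and the median was -0.05. That median ran from -0.11 without rhMG53 replicate 1 to -0.02 without rhMG53 replicate 2 or 3. At an unadjusted p under 0.05 in edgeR 1 was higher and 1 lower, where 2.98% and 2.22% of all tested genes were. All rhMG53 libraries lay above all BSA libraries for 1 gene and below them for 1, against 5.94% and 4.83% of all. The 2 genes with the smallest p are named. Abca7, a lipid transporter related to Abca1, averaged 63.8 ± 1.72 and 54.8 ± 4.42 CPM (-0.22, SE 0.0706, adjusted p = 0.935), below in every rhMG53 library. Arl4c, a small GTPase gene and LXR target, was higher in every rhMG53 library (19.1 ± 1.64 and 21.7 ± 0.178 CPM, 0.19, SE 0.0828, adjusted p = 0.95). LXR targets therefore did not all share a sign.

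**Figure D5:**
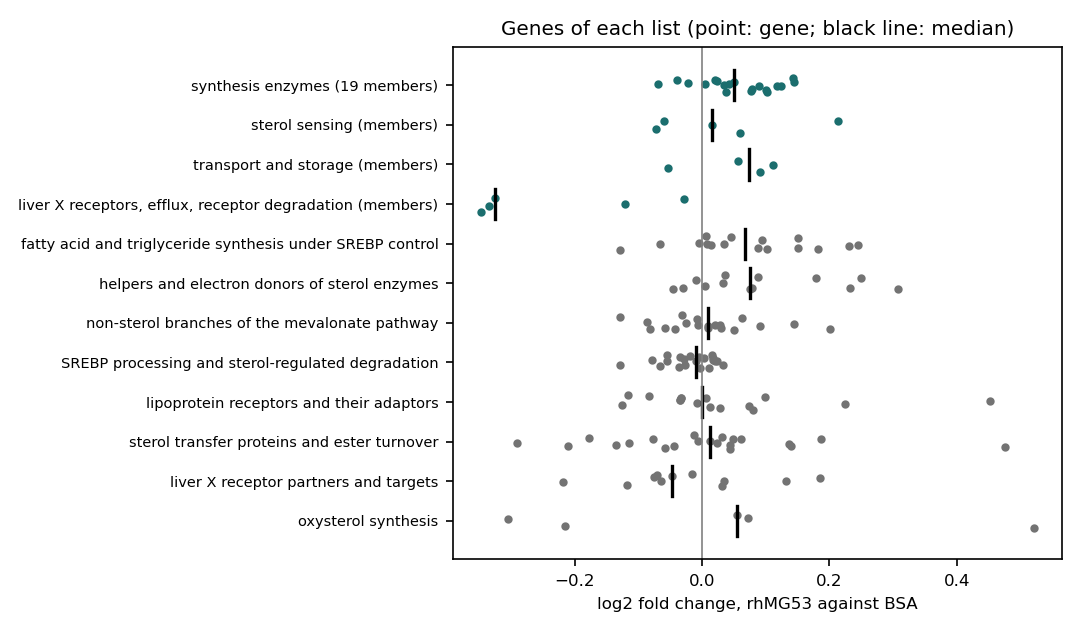
Log2 fold change of every tested gene in each list (points, with a small vertical scatter) and the list's median (black line), for the 33 genes in teal and for related lists in grey. Medians of the enzymes, fatty acid genes and helpers lie at 0.05, 0.07 and 0.08, and that of the liver X receptor, efflux and receptor degradation genes at -0.33.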

How the data were processed

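Raw gene counts of 6 poly(A) RNA libraries (3 BSA, 3 rhMG53) were deposited by the authors as 1 table of 27179 Entrez gene rows. The submitters' processing notes name mm10, STAR, featureCounts and edgeR without versions or roles. Libraries were made with a directional kit, per the labels' protocols, and the sources used here state neither the annotation nor the strand setting of the counting. Names came from RefSeq for 25275 IDs and from GENCODE M21 for 18, and 1886 had none.

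Counts were fitted in edgeR 4.0.16 (R 4.3.3) with treatment as the single term, TMM scaling and the quasi-likelihood F test. The filter kept 13769 genes (minimum count 10, minimum total 15). p-values were adjusted by Benjamini-Hochberg over all genes kept. SE is the log2 fold change divided by the square root of F. Alternatives were DESeq2 1.42.0, limma 3.58.1 (voom), other scalings and filters, a replicate block, and leaving out each library. The script was tested on simulated data.

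The genes and lists were chosen with earlier results of these data known. Libraries were grouped by title. Genes given per library were the 9 in the plot of single libraries, which the rule for named genes set, and others chosen after their values were seen. Each related list names its 2 genes with the smallest p. Some genes of the pathway are not reported here.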

Additional observations from a re-analysis of the deposited data

How the results depend on the processing

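None of the 33 genes was called under any alternative, including an adjusted p under 0.1. Over all genes the 3 calls became 6 with a total count of at least 1, 5 with DESeq2 and 0 with the replicate block, and 0 to 4 when each library was left out. The replicate block left 22 of the 33 genes above 0. Deviations of same-numbered libraries from their group mean correlated at 0.19, -0.13 and -0.15 over 13769 genes. The highest correlation was 0.30, for BSA replicate 3 with rhMG53 replicate 2. With means of 3 libraries these values cannot decide whether the replicate numbers pair the libraries. The cause of the values that changed was not tested.

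Idi1 became -0.000199 with RLE scaling and -0.00228 with upper quartile scaling. With library size scaling the median of the SREBP processing list became 0.00469 and that of the lipoprotein receptors 0.0132, which was 0.000673 with voom. The median of the non-sterol branches became -0.00989 at a mean of at least 5 CPM. Leaving out each library gave Mvk -0.0237 to 0.0652, Pmvk -0.0164 to 0.0965, Idi1 -0.0607 to 0.0578, Tm7sf2 -0.0745 to 0.0195, Nsdhl -0.0103 to 0.0843, Hsd17b7 -0.0303 to 0.103, Dhcr7 -0.00201 to 0.0653, Srebf2 -0.0161 to 0.0475, Stard4 -0.000821 to 0.208, Npc1 -0.106 to 0.0137 and Nr1h2 -0.0798 to 0.00296. Ranges that kept their sign but moved by over 1.5 times were 0.06 to 0.20 for Acat2, 0.06 to 0.15 for Hmgcs1, 0.04 to 0.13 for Fdps, 0.08 to 0.15 for Fdft1, 0.06 to 0.14 for Cyp51, 0.06 to 0.15 for Msmo1, -0.07 to -0.01 for Ebp, -0.10 to -0.04 for Insig2, 0.03 to 0.09 for Scap and 0.002 to 0.15 for Soat1. The medians ran from -0.0161 to 0.0475 for the sensors, -0.00381 to 0.0261 for the non-sterol branches, -0.0228 to 0.00142 for SREBP processing, -0.0394 to 0.0334 for lipoprotein receptors, -0.0227 to 0.0131 for sterol transfer and -0.0364 to 0.125 for oxysterol synthesis. Insig1 ran from 0.19 to 0.24 and Mylip from -0.40 to -0.29 over all alternatives, with lowest adjusted p of 0.645 and 0.773.

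With 3 libraries a group, each gene's data allow any change within its own 95% interval. Those intervals held no change for all genes but Insig1, Mvd, Abcg1 and Mylip. The lowest bound of any gene was 0.526-fold, for Nr1h3, and the highest was 1.304-fold, for Stard4. Nr1h3 had the widest interval, at 13 to 24 counts per library.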

Other observations

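Genes that make oxysterols, the ligands of the liver X receptors, were low and mixed, with 3 of 5 tested above 0 and none called by edgeR, 1 higher and 1 lower at an unadjusted p under 0.05. At that level 2.98% of all tested genes were higher and 2.22% lower, and 50.5% of all were above 0. Ch25h, which makes 25-hydroxycholesterol, averaged 2.60 ± 0.415 CPM with BSA and 3.76 ± 0.343 CPM with rhMG53, higher in every rhMG53 library (log2 fold change 0.52, SE 0.176, adjusted p = 0.935). Cyp27a1, which makes 27-hydroxycholesterol, averaged 13.8 ± 1.37 and 11.1 ± 0.646 CPM, lower in every rhMG53 library (-0.31, SE 0.104, adjusted p = 0.935). Both genes are named for the smallest p of this list. All rhMG53 libraries lay above all BSA libraries for 1 of the 5 and below them for 2. Over all tested genes these shares were 5.94% and 4.83%.

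Genes that process SREBP or degrade sterol-regulated proteins had 8 of 21 above 0 and a median of -0.01, with Fbxw7, a ubiquitin ligase subunit that targets SREBP, at -0.06 (adjusted p = 0.983) and Faf2, of membrane protein degradation, at -0.08 (adjusted p = 0.986). Faf2 was -0.001 without rhMG53 replicate 2 and -0.16 without rhMG53 replicate 1. The non-sterol branches of the mevalonate pathway had 10 of 19 above 0 and a median of 0.01, with Zmpste24, the prelamin A protease, at -0.08 (adjusted p = 0.974) and Srd5a3, of dolichol synthesis, at 0.20 (adjusted p = 0.981). Srd5a3 was 0.09 without BSA replicate 2 and 0.38 without BSA replicate 3. Sterol transfer proteins and ester turnover had 11 of 21 above 0 and a median of 0.01, with Gramd1b, a sterol transfer protein of membrane contacts, at -0.21 (adjusted p = 0.965) and Stard3, of late endosomes, at -0.14 (adjusted p = 0.970). Gramd1b was -0.11 without rhMG53 replicate 2. In these 3 lists 0 genes were called by edgeR and 0 had an unadjusted p under 0.05.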
